A study of Mus musculus with 12 samples.

Results

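The 10 genes described here encode chains of collagen IV (Col4a1 and Col4a2), collagen VI (Col6a1, Col6a2 and Col6a3) and the laminins (alpha chains Lama2 and Lama4, beta chains Lamb1 and Lamb2, gamma chain Lamc1). They were taken by name from a liver RNA sequencing count table of 50499 genes, and all 10 passed the filter on low counts that left 11934 genes for testing. The libraries fall into 4 groups of 3. Western siAATF livers came from mice on a Western diet with sugar water that were given AAV8-TBG-siAATF, and Western null livers from mice on the same diet given AAV8-TBG-Null. Chow siAATF and chow null livers came from mice on chow with normal water that were given the same silencing or null vector. All mice were male C57BL/6 animals, aged 6 weeks when the diets began. Vectors were injected by tail vein after 12 weeks, and livers were taken 12 weeks later. The TBG promoter is active in hepatocytes, so the vector is directed at hepatocytes and not at the cells known to make most of these chains. The labels do not say whether the 3 replicates of a group were 3 mice, and p-values therefore reflect a spread among samples that may be technical.

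Basement membranes are thin sheets of matrix in which a collagen IV network and a laminin network are tied together by nidogen and perlecan. A collagen IV trimer holds alpha1 and alpha2 chains in most tissues, a laminin trimer holds 1 alpha, 1 beta and 1 gamma chain, and collagen VI trimers form beaded filaments that lie around cells and beside basement membranes. In liver these chains are known to be made chiefly by stellate cells, portal fibroblasts and endothelial cells. The sinusoids of healthy liver lack a continuous basement membrane, and deposits of collagen IV and laminin along them accompany fibrosis.

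Library totals ran from 1646853 to 13469819 counts, and 0.871% to 50.8% of them fell on Rn18s-rs5, a gene of 18S ribosomal RNA. The share was over 25% in Western siAATF replicate 2 (50.8%), chow siAATF replicate 1 (41.4%) and chow null replicates 1 (25.2%) and 2 (30.4%). No Western null library had such a share. The 10 chains held between 544 counts (chow null replicate 2) and 7133 counts (Western null replicate 3), and the lowest count of any chain in any library was 11, for Lama2 in chow null replicate 2. Levels are given as CPM, counts scaled by TMM library size, and 3 counts corresponded to 0.185 to 1.69 CPM. Western siAATF replicate 2 and chow null replicate 2 stood apart from their groups, the first with the lowest level of 9 chains (all except Lama4) and the second with the highest level of 9 (all except Lamc1). Aatf, the gene that the vector targets, stood at 27.0, 27.5 and 28.2 CPM in Western siAATF, against 27.6, 21.1 and 30 CPM in Western null (log2 fold change 0.06 ± 0.25 SE, edgeR adjusted p = 0.953). In chow siAATF it stood at 39.2, 24.6 and 40.5 CPM, against 36.8, 26.5 and 31.6 CPM in chow null (0.11 ± 0.24, edgeR adjusted p = 1). Aatf was thus not measurably lower in the libraries labelled siAATF, and group names for the vector are those of the labels.

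Promoter sequences of the genes that lie side by side are shown first. Levels within each pair ran close together over the 12 libraries (Pearson r of log2 CPM 0.959 for Col4a1 with Col4a2 and 0.978 for Col6a1 with Col6a2). This was not particular to neighbours, since Col4a1 reached 0.957 with Col6a1 and 0.955 with Lamb2, on other chromosomes. A part of shared promoters in these levels was not tested. They come from RefSeq on build GRCm38.p6, which is not the build of the counts, and each runs 5′ to 3′ on the gene's own strand from 250 bases before to 50 after the annotated start. The collagen IV pair is transcribed outwards from a shared stretch, with annotated starts 21 bases apart. The capitals mark the 78 bases that both windows hold, read on opposite strands. The Col4a1 window is chr8:11312777-11313076 on the minus strand, and the Col4a2 window is chr8:11312555-11312854 on the plus strand.
Col4a1: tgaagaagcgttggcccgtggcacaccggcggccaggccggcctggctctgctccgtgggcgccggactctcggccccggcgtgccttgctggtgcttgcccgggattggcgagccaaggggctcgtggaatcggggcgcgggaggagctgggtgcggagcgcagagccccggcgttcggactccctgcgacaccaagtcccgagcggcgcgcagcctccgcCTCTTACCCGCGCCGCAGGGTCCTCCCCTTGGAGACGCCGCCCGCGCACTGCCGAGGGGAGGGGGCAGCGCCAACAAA
Col4a2: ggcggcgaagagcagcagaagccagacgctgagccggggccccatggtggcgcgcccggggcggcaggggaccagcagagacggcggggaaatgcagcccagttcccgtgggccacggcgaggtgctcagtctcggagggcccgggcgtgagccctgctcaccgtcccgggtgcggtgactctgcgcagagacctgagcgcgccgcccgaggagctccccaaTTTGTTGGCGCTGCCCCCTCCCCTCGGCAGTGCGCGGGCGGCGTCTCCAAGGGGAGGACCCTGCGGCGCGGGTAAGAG
The collagen VI pair Col6a1 and Col6a2 lies on chromosome 10, both genes on the minus strand. In the Col6a1 window (chr10:76725995-76726294) the capitals mark the only match to the AP-1 motif TGACTCA. In the Col6a2 window (chr10:76623355-76623654) they mark 3 matches to the GC box GGGCGG, read here on the other strand, of which 2 overlap.
Col6a1: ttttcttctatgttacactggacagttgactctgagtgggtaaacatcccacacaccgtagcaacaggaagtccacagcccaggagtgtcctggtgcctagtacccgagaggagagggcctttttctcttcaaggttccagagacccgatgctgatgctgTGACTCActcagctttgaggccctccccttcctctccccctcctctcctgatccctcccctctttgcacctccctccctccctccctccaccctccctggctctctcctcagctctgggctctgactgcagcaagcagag
Col6a2: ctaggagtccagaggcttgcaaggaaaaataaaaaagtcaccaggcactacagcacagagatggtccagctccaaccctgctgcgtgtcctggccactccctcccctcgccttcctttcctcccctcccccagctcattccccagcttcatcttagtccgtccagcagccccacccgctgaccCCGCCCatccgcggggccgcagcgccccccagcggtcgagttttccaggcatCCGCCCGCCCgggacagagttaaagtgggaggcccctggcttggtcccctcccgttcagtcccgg
Of the 10 genes, 8 had a RefSeq window (9 windows, since Col6a2 had 2). Both strands of each were searched for 4 motifs, and the same was done over 32851 windows of 300 bases. The GC box GGGCGG was found in 35.7% of all windows, and among the chains in those of Col4a1, Col4a2, Col6a2, Lama2 and Lamb1. CCAAT was found in 37.4% of all windows and in those of Col4a1, Col4a2 and Lamb1. TATAAA was found in 13.6% of all windows and in none of the 9. TGACTCA was found in 5.2% of all windows, and among the chains in Col6a1. A match is a string of letters and is not evidence of binding.

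The Western diet under the null vector is the first comparison the series names. Chains of collagen VI rose most, the laminin chains Lama2, Lamb1, Lamb2 and Lamc1 rose, and Lama4 did not change measurably. Of the 10 chains, 7 were called higher in Western null than in chow null livers and 0 lower, where 6.44% of the 11934 genes tested were called higher, 6.77% lower and 13.2% in either direction (edgeR quasi-likelihood, adjusted p under 0.05 by Benjamini-Hochberg). The median log2 fold change of the 10 was 1.58, against -0.03 over all genes tested. In 9 of the 10 every Western null library lay above every chow null library, which was so for 17.7% of all genes. Called chains numbered 9 without Western siAATF replicate 2 and 8 without chow null replicate 2, and 4 without Western null replicate 1, Western null replicate 3, chow null replicate 1 or chow null replicate 3. Among all genes, these fits called 958, 809, 459, 507, 429 and 337 higher in turn, against 769 as reported. DESeq2, and edgeR on the compared groups alone, each called 9 of the 10 higher, all except Lama4. Among all genes, DESeq2 called 1025 higher and the compared groups alone 984. In bulk liver, a change in the number of cells of a type and a change in RNA per cell cannot be told apart.

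**Figure D1:**
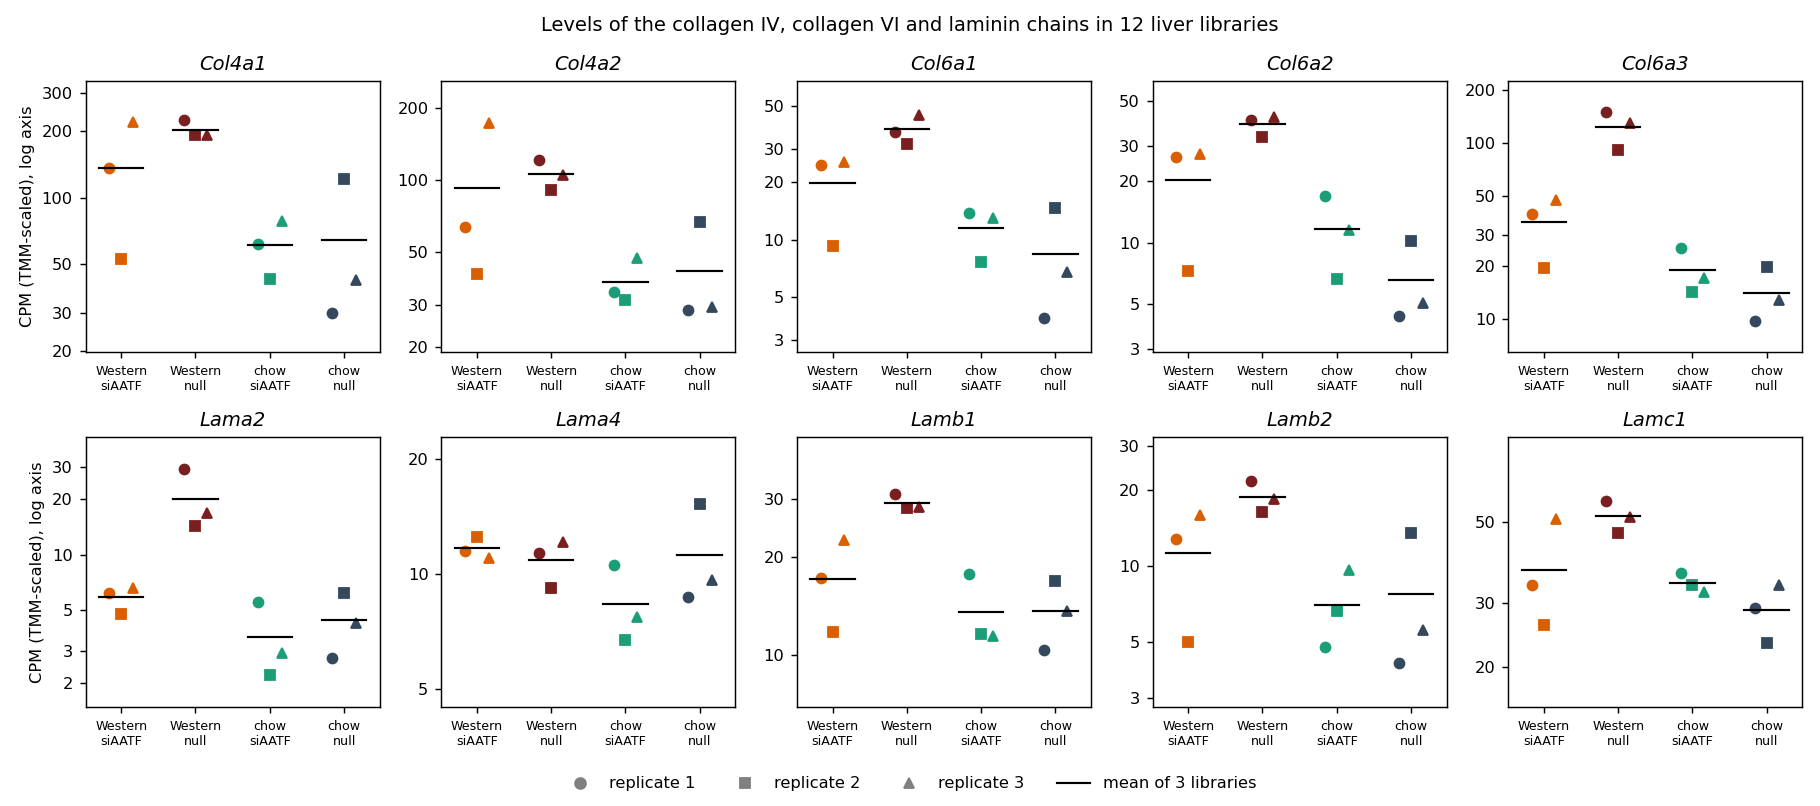
Level of each chain in each of the 12 libraries, as TMM-scaled CPM on a log axis, with a symbol per replicate number and a bar at the mean of 3 libraries. Western null libraries lie above all chow null libraries in 9 panels, and in the Lama4 panel these 2 groups overlap.

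Collagen VI is a trimer of alpha1, alpha2 and one further chain, most often alpha3, the longest of them. Col6a3 (chromosome 1, 90694582 to 90771710, minus strand, GRCm39 as in the count table) stood at 150, 91.3 and 130 CPM in Western null, against 9.71, 19.8 and 12.8 CPM in chow null. The groups were far apart, with means of 124 ± 29.9 CPM in Western null and 14.1 ± 5.15 CPM in chow null (SD, n = 3 each). Col6a3 rose by 3.20 ± 0.37 (log2 ± SE, edgeR adjusted p = 6.45e-05), the largest change among the 10. Col6a2 (chromosome 10, 76431590 to 76459464) stood at 40.0, 33.0 and 41.7 CPM in Western null, against 4.34, 10.2 and 5.05 CPM in chow null. No library of one group reached the other, and the rise was 2.71 ± 0.47 (edgeR adjusted p = 0.00183). Its neighbour Col6a1 (chromosome 10, 76544626 to 76561878) stood at 36.5, 31.7 and 45.2 CPM in Western null, against 3.88, 14.7 and 6.79 CPM in chow null. This was a rise of 2.35 ± 0.45 (edgeR adjusted p = 0.00312), again with no overlap. All 3 genes are free of overlapping genes in the table, and their calls held under each of the 20 other settings tried.

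Collagen IV alpha1 and alpha2 are the chains of the ubiquitous basement membrane trimer. Col4a1 (chromosome 8, 11248423 to 11362889, minus strand) stood at 226, 193 and 192 CPM in Western null, against 29.8, 121 and 42.3 CPM in chow null. The Western null libraries were close to each other, whereas chow null replicate 2 lay between the rest of its group and Western null. The difference of 1.70 ± 0.54 missed the threshold (edgeR adjusted p = 0.0537, range over the settings 6.3e-07 to 0.186) and passed it without that replicate (2.48, edgeR adjusted p = 0.00522). It also passed without Western siAATF replicate 2 (1.70, edgeR adjusted p = 0.0194) and without Western siAATF replicate 3 (1.71, edgeR adjusted p = 0.0325), with the compared groups alone (1.72, edgeR adjusted p = 0.0134) and with DESeq2 (1.69, DESeq2 adjusted p = 0.00759). It passed further without the low-count filter (1.69, edgeR adjusted p = 6.3e-07). Leaving out the 4 libraries of highest 18S share left chow null replicate 3 alone in its group, and the Col4a1 difference was then 2.29. Col4a2 (chromosome 8, 11362805 to 11499287, plus strand) stood at 122, 90.6 and 104 CPM in Western null, against 28.7, 66.6 and 29.3 CPM in chow null. The groups did not overlap, and the pattern of the chow null libraries was that of Col4a1. Its difference of 1.39 ± 0.46 had an edgeR adjusted p of 0.0621 (range 0.000122 to 0.22) and passed without chow null replicate 2 (1.85, edgeR adjusted p = 0.0219). It passed likewise without Western siAATF replicate 2 (1.39, edgeR adjusted p = 0.0204) and without Western siAATF replicate 3 (1.40, edgeR adjusted p = 0.00382), without the low-count filter (1.37, edgeR adjusted p = 0.000122), with the compared groups alone (1.40, edgeR adjusted p = 0.00438) and with DESeq2 (1.38, DESeq2 adjusted p = 0.0216). The spans of both genes overlap by 85 bases, and 32.4% of the Col4a1 span and 27.3% of the Col4a2 span are shared with other annotated genes, so part of their reads may not have been assigned.

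Laminin alpha2, encoded by Lama2, is the chain of muscle and peripheral nerve basement membranes and is made by mesenchymal cells, and alpha4, encoded by Lama4, is a chain of endothelial and mesenchymal basement membranes. Lama2 (chromosome 10, 26857281 to 27493021, minus strand) stood at 29.1, 14.3 and 16.9 CPM in Western null, against 2.74, 6.21 and 4.27 CPM in chow null. All Western null libraries were higher, and the rise was 2.27 ± 0.42 (edgeR adjusted p = 0.00243), kept under each of the 20 other settings. Lama4 (chromosome 10, 38841511 to 38986184, plus strand) stood at 11.4, 9.20 and 12.1 CPM in Western null, against 8.68, 15.2 and 9.66 CPM in chow null. The 2 groups overlapped, with a difference of 0.03 ± 0.30 and a 95% interval from -0.61 to 0.67 (edgeR adjusted p = 0.958). Its sign turned to -0.09 without Western null replicate 3, -0.13 and -0.07 without chow null replicate 1 and 3 in turn, none of them called.

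The beta and gamma chains complete the laminin trimer. Lamb1 (chromosome 12, 31315230 to 31379643), the widespread beta1 chain, stood at 31.1, 28.3 and 28.5 CPM in Western null, against 10.4, 16.9 and 13.7 CPM in chow null. Its groups did not overlap, and it rose by 1.13 ± 0.29 (edgeR adjusted p = 0.0173, range over the settings 0.00339 to 0.0857). The call was lost without Western null replicate 1 (edgeR adjusted p = 0.0576), Western null replicate 3 (0.0519), chow null replicate 1 (0.0857) or chow null replicate 3 (0.0709). Lamb2 (chromosome 9, 108357046 to 108367729), the beta2 chain known from kidney filters and the neuromuscular junction, stood at 21.7, 16.4 and 18.4 CPM in Western null, against 4.11, 13.55 and 5.57 CPM in chow null. It rose by 1.45 ± 0.45 (edgeR adjusted p = 0.0441, range 0.00442 to 0.189). Lamc1 (chromosome 1, 153094668 to 153208532), whose gamma1 chain is part of most laminins, stood at 57.3, 46.7 and 51.7 CPM in Western null, against 29.0, 23.2 and 33.4 CPM in chow null. It rose by 0.84 ± 0.25 (edgeR adjusted p = 0.0371, range 0.0121 to 0.187), the smallest of the called changes.

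The calls of Lamb2 and Lamc1 lay near the threshold, and each was kept in 10 of the 20 other settings. The call of Lamb2 was lost without Western siAATF replicate 1 (edgeR adjusted p = 0.0502), Western null replicate 1, 2 or 3 (0.124, 0.0857 and 0.104), chow siAATF replicate 2 or 3 (0.0613 and 0.0522) or chow null replicate 1 or 3 (0.18 and 0.189), and also with the replicate block (0.0756) and with the trend on gene span removed (0.0691). That of Lamc1 was lost without Western null replicate 1, 2 or 3 (edgeR adjusted p = 0.116, 0.0709 and 0.0946), chow siAATF replicate 2 or 3 (0.0512 and 0.0523) or chow null replicate 1, 2 or 3 (0.0954, 0.0861 and 0.069). Lamc1 also lost it without the low-count filter (0.81, edgeR adjusted p = 0.0632). When the 4 libraries with over 25% of their counts on the 18S gene were left out, the Lamc1 difference was 0.66. That setting left chow null replicate 3 alone in its group.

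The vector on the Western diet is the next comparison of the series. Col6a3 fell, and no other of the 10 chains passed the test. Of the 10, 1 was called lower and 0 higher in Western siAATF than in Western null, where 0.561% of all genes tested were called lower, 0.31% higher and 0.871% in either direction (edgeR, adjusted p under 0.05). The median log2 fold change of the 10 was -0.78, against 0.06 over all genes. In 6 of the 10 (Col6a1, Col6a2, Col6a3, Lama2, Lamb1 and Lamb2) every Western siAATF library lay below every Western null library, which was so for 7.87% of all genes. This comparison and the first share the Western null libraries, so opposite signs in them are not independent of each other.

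Col6a3 stood at 39.6, 19.5 and 47.5 CPM in Western siAATF, against 150, 91.3 and 130 CPM in Western null. The highest Western siAATF library was well below the lowest Western null library, and Col6a3 fell by 1.81 ± 0.34 (log2 ± SE, edgeR adjusted p = 0.0169, range over the settings 1.74e-07 to 0.0962). The call was lost without Western null replicate 1 (edgeR adjusted p = 0.0962), Western null replicate 3 (0.091) or Western siAATF replicate 1 (0.0574), with a fall of at least 1.5 in every setting. Lama2 stood at 6.19, 4.77 and 6.60 CPM in Western siAATF, against 29.1, 14.3 and 16.9 CPM in Western null. The Western siAATF libraries lay close together and all below Western null, but the difference of -1.77 ± 0.41 missed the threshold (edgeR adjusted p = 0.0539, range 0.00183 to 0.292). It passed without Western siAATF replicate 3 (-1.86, edgeR adjusted p = 0.0273), chow siAATF replicate 1 (-1.77, 0.0426), chow null replicate 1 (-1.77, 0.046) or chow null replicate 2 (-1.76, 0.0492), and with DESeq2 (-1.78, DESeq2 adjusted p = 0.00531).

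The other collagen VI and laminin chains had smaller differences. Col6a1 stood at 24.8, 9.30 and 25.5 CPM in Western siAATF, against 36.5, 31.7 and 45.2 CPM in Western null (-0.95 ± 0.41, edgeR adjusted p = 0.411). Col6a2 stood at 26.5, 7.26 and 27.3 CPM in Western siAATF, against 40.0, 33.0 and 41.7 CPM in Western null (-0.93 ± 0.43, edgeR adjusted p = 0.456). In both genes the replicate 2 library of Western siAATF was far below the other two. That library also had the largest share of 18S counts of the 12, at 50.8%, and the part of this in its low values was not tested. Without it the differences were -0.60 for Col6a1 and -0.51 for Col6a2. Lamb1 stood at 17.2, 11.8 and 22.5 CPM in Western siAATF, against 31.1, 28.3 and 28.5 CPM in Western null (-0.79 ± 0.29, edgeR adjusted p = 0.292). Lamb2 stood at 12.8, 4.99 and 15.9 CPM in Western siAATF, against 21.7, 16.4 and 18.4 CPM in Western null (-0.77 ± 0.44, edgeR adjusted p = 0.586). Both beta chains thus had separate groups whose nearest libraries were not far apart, and without Western siAATF replicate 2 the difference of Lamb2 was -0.40. Lamc1 stood at 33.6, 26.1 and 51.1 CPM in Western siAATF, against 57.3, 46.7 and 51.7 CPM in Western null (-0.50 ± 0.25, edgeR adjusted p = 0.511), a difference of -0.305 without Western siAATF replicate 2 and -0.81 without replicate 3. Lama4 stood at 11.5, 12.5 and 11 CPM in Western siAATF, against 11.4, 9.20 and 12.1 CPM in Western null (0.09 ± 0.30, edgeR adjusted p = 0.94). Both overlapped between groups.

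Collagen IV did not separate the vector groups. Col4a1 stood at 136, 52.6 and 221 CPM in Western siAATF, against 226, 193 and 192 CPM in Western null (-0.58 ± 0.52, edgeR adjusted p = 0.758). Col4a2 stood at 63.5, 40.4 and 173 CPM in Western siAATF, against 122, 90.6 and 104 CPM in Western null (-0.21 ± 0.45, edgeR adjusted p = 0.907). Western siAATF replicate 3 was higher than the lowest Western null library in both genes and the highest of all 12 for Col4a2. The means of Col4a1 were 137 ± 84.4 CPM in Western siAATF and 204 ± 19.2 CPM in Western null (SD, n = 3 each), and those of Col4a2 were 92.3 ± 70.8 CPM in Western siAATF and 105 ± 15.4 CPM in Western null. The Col4a1 difference was -0.19 without Western siAATF replicate 2 and -1.13 without Western siAATF replicate 3, neither called, and that of Col4a2 was -1.04 without Western siAATF replicate 3. The 95% interval of the Col4a2 difference ran from -1.17 to 0.76, and its sign turned to 0.01 without Western siAATF replicate 1 and 0.15 without Western siAATF replicate 2.

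**Figure D2:**
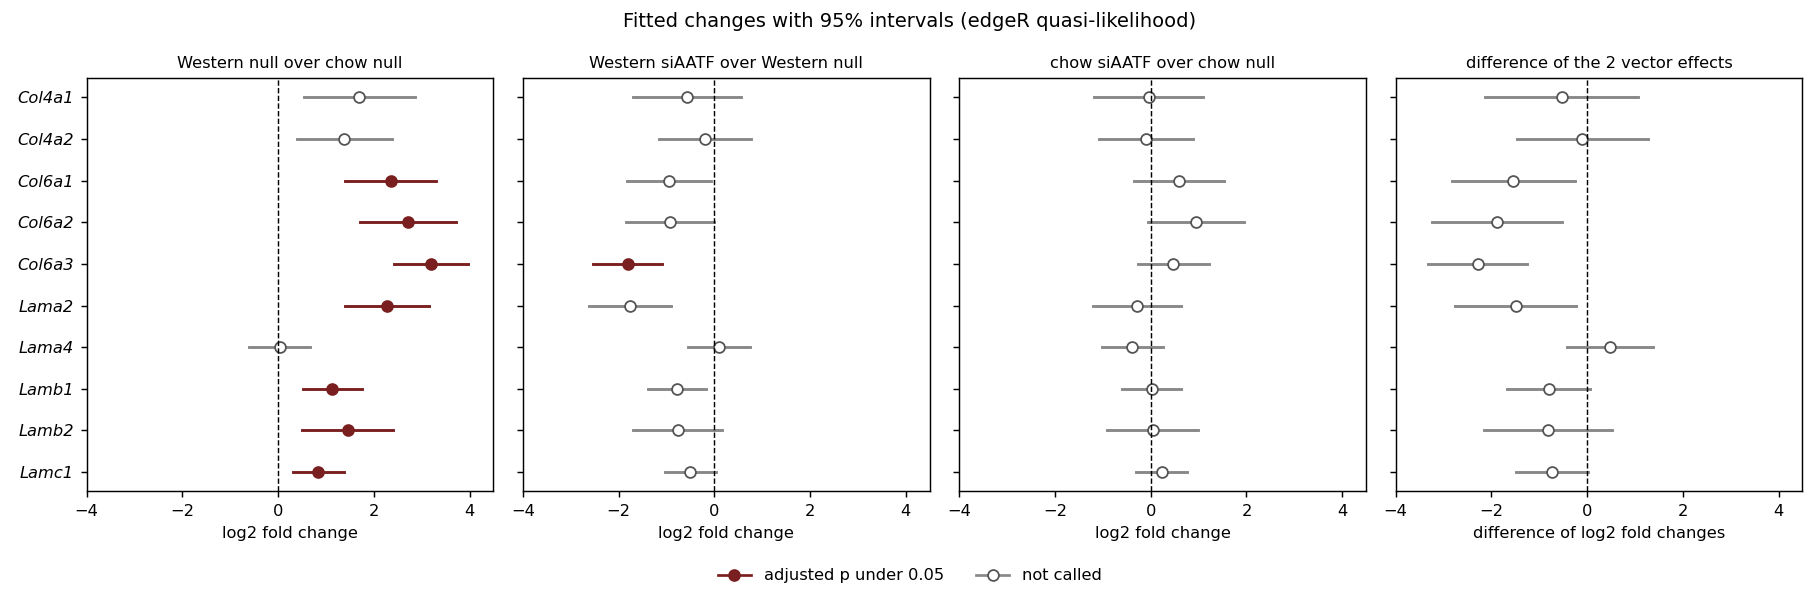
Fitted log2 fold change of each chain with its 95% interval, for Western null over chow null, Western siAATF over Western null, chow siAATF over chow null, and the difference between both vector effects. Filled symbols passed an adjusted p of 0.05: 7 chains in the first panel, Col6a3 in the second, and 0 in the others.

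On chow, 0 of the 10 chains and 0 of 11934 genes (0%) were called between chow siAATF and chow null by edgeR. At an unadjusted p under 0.05, 0 of the 10 chains and 2.39% of all genes passed, and DESeq2 called 1 gene, which was not one of the 10. Log2 differences ran from -0.39 ± 0.30 for Lama4 to 0.95 ± 0.47 for Col6a2, and no chain had separate groups, where 4.25% of all genes were separated upwards and 4.32% downwards. The Col6a2 libraries stood at 16.9, 6.65 and 11.5 CPM in chow siAATF, against 4.34, 10.2 and 5.05 CPM in chow null. Those of Lama4 stood at 10.6, 6.71 and 7.73 CPM in chow siAATF, against 8.68, 15.2 and 9.66 CPM in chow null. Both genes overlapped between the groups, and the interval of the Col6a2 difference, -0.05 to 1.96, leaves a change of that size undecided. Col6a3 averaged 18.9 ± 5.82 CPM in chow siAATF and 14.1 ± 5.15 CPM in chow null (SD, n = 3 each), and Col4a1 averaged 60.8 ± 17.7 CPM in chow siAATF and 64.3 ± 49.3 CPM in chow null.

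The difference between the vector's effect on the Western diet and on chow was tested as an interaction. It was called for 0 of the 10 chains, where 0.193% of all genes were called (edgeR, adjusted p under 0.05). At an unadjusted p under 0.05, 4 of the 10 passed (Col6a1, Col6a2, Col6a3 and Lama2), against 9.16% of all genes, and DESeq2 called 1, Col6a3. The Col6a3 interaction was -2.28 ± 0.49 (edgeR adjusted p = 0.0784, range over the settings 1.65e-05 to 0.235), and it passed without Western siAATF replicate 3 (-2.59, edgeR adjusted p = 0.00542) and with DESeq2 (-2.28, DESeq2 adjusted p = 0.00463). Those of Col6a2, Col6a1 and Lama2 were -1.88 ± 0.64, -1.54 ± 0.61 and -1.49 ± 0.60 (edgeR adjusted p = 0.356, 0.458 and 0.464). For Col4a2 it was -0.10 ± 0.64 (edgeR adjusted p = 0.973).

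Western siAATF livers were also set against both chow groups. Against chow siAATF, 0 of the 10 were called, where 1.48% of all genes were called by edgeR, and DESeq2 also called 0 of the 10. At an unadjusted p under 0.05, 3 passed (15.2% of all genes), with differences of 1.29 ± 0.46 for Col4a2, 1.17 ± 0.53 for Col4a1 and 0.92 ± 0.34 for Col6a3 (edgeR adjusted p = 0.19, 0.316 and 0.203). Lama4 was the only chain whose groups did not overlap, at 11.5, 12.5 and 11 CPM in Western siAATF against 10.6, 6.71 and 7.73 CPM in chow siAATF (0.51 ± 0.30, edgeR adjusted p = 0.448). Groups separated upwards like this in 9.24% of all genes and downwards in 8.36%. Against chow null, 1 of the 10 was called higher, where 1.26% of all genes were called higher and 2.43% in either direction. This was Col6a3, with 39.6, 19.5 and 47.5 CPM in Western siAATF against 9.71, 19.8 and 12.8 CPM in chow null. Although 1 library of each group overlapped, it rose by 1.39 ± 0.36 (edgeR adjusted p = 0.0496, range 0.000611 to 0.223), a call kept in 6 of 20 other settings. Among those that lost it were the fits without Western siAATF replicate 1 or 3 (edgeR adjusted p = 0.151 and 0.0709), without Western null replicate 1, 2 or 3 (0.0736, 0.064 and 0.0821), without chow siAATF replicate 2 or 3 (0.0626 and 0.0681) and without chow null replicate 1 or 3 (0.154 and 0.222).

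Ratios of chains within a library do not depend on how libraries are scaled. They were taken per kilobase of counted gene span, and with 3 libraries against 3 the smallest two-sided p of the exact permutation test is 0.1. The ratio of Lama4 to Lama2 was 1.71, 2.83 and 3.16 in Western null, against 13.9, 10.8 and 9.95 in chow null. The highest Western null ratio was far below the lowest chow null ratio, a log2 difference of -2.20 (exact permutation p = 0.1). In Western siAATF the ratio was 8.16, 11.5 and 7.32, all above Western null (log2 difference 1.83, exact permutation p = 0.1), and in chow siAATF it was 8.37, 13.3 and 11.6. Of the 4 groups, Western null was the one whose libraries all lay apart from the rest.

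The ratio of the alpha3 chain to the others of collagen VI also set Western null apart from chow null and Western siAATF. The ratio of Col6a3 to Col6a1 plus Col6a2 was 0.548, 0.392 and 0.410 in Western null, against 0.331, 0.211 and 0.289 in chow null (log2 difference 0.71, exact permutation p = 0.1). In Western siAATF it was 0.215, 0.316 and 0.251, all below Western null (log2 difference -0.79, exact permutation p = 0.1). By contrast, the ratio of Col6a1 to Col6a2 overlapped, at 1.48, 1.55 and 1.75 in Western null and 1.45, 2.33 and 2.17 in chow null (exact permutation p = 0.4). The ratio of Col4a1 to Col4a2 was 2.22, 2.54 and 2.19 in Western null, against 1.24, 2.16 and 1.72 in chow null, which lay just below (log2 difference 0.47, exact permutation p = 0.1). In Western siAATF it was 2.55, 1.55 and 1.53 and overlapped Western null (exact permutation p = 0.4). The ratio of Lamb2 to Lamb1 overlapped between the groups in each of the 3 comparisons tested (exact permutation p = 0.4 to 1). For these 5 ratios in 3 comparisons, 15 tests in all, no p adjusted over the family could pass 0.05.

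**Figure D3:**
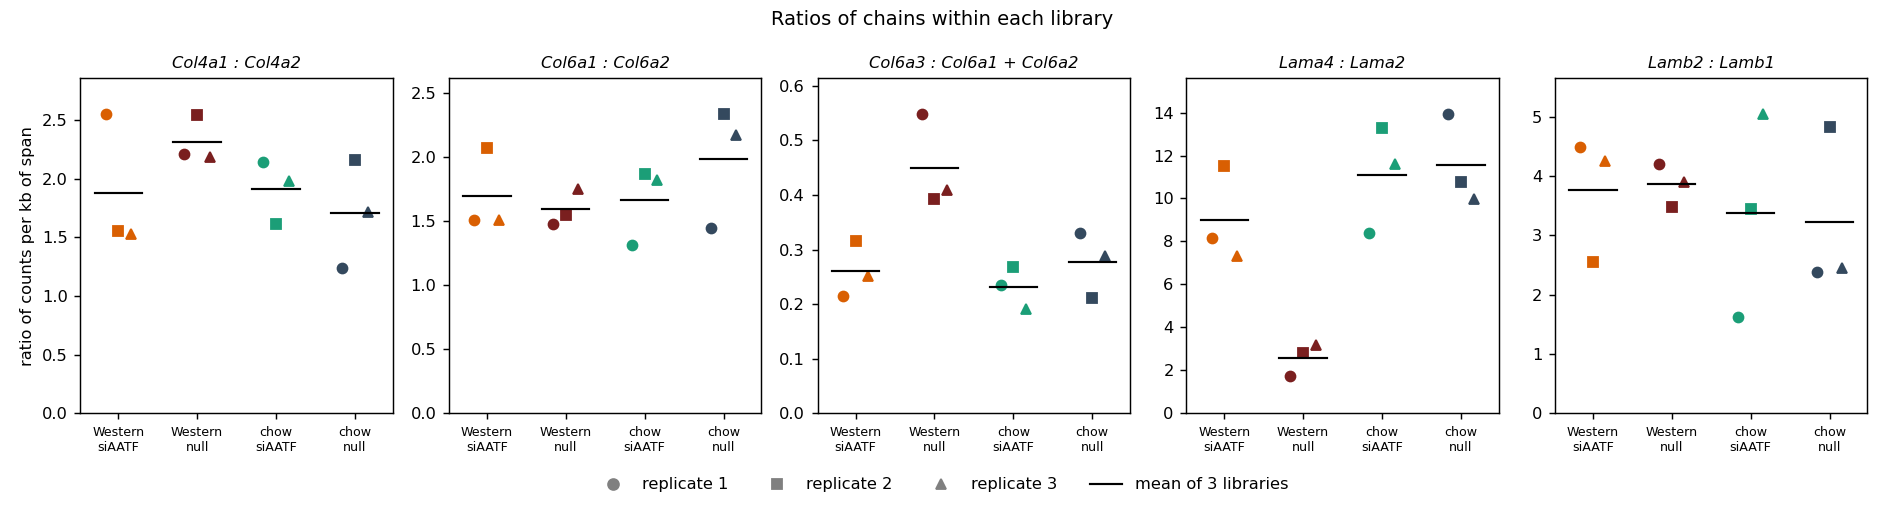
Ratio of counts per kilobase of gene span between chains of the same library, on a linear axis from 0, with a symbol per replicate number and a bar at the mean of 3. Western null libraries stand alone at the bottom of the Lama4 to Lama2 panel (1.71 to 3.16) and at the top of the Col6a3 to Col6a1 plus Col6a2 panel (0.392 to 0.548).

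Per kilobase of span, Col6a1 had the highest level among the chains in Western null (2.19 CPM per kb), followed by Col4a1 (1.78), Lamb2 (1.76), Col6a3 (1.61) and Col6a2 (1.37). In chow null the order began with Lamb2 (0.725 CPM per kb), Col4a1 (0.562) and Col6a1 (0.490), and Col6a3 (0.183) came eighth. Lama4 and Lama2 were last in all 4 groups, Lama2 at 0.0316 CPM per kb in Western null and 0.00693 in chow null. These levels divide by introns as well as exons, because reads were counted over whole genes, and so rank long genes low.

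The chains other than Lama4 moved together over the 12 libraries. Among the other 9 chains the 36 Pearson correlations of log2 CPM ran from 0.647 to 0.978, the highest being Col6a1 with Col6a2 (0.978), and Col4a1 with Col4a2 reached 0.959. After each group's mean was subtracted they ran from 0.222 to 0.938, so the chains also varied together between libraries of the same group. Lama4 correlated with the other chains between -0.05 and 0.50 over all libraries. After the group means were subtracted it ran from -0.271 with Lamc1 to 0.769 with Lama2, within the spread of the other chains except with Lamc1. These are descriptions over libraries that share depth and groups. Of 9369 genes with a mean of at least 5 CPM, those most like the mean of the 10 standardised chains were Col1a1 (r = 0.981 over 12 libraries), Col3a1 (0.980), Col1a2 (0.977), Sparc (0.969), Adamts2 (0.965) and Tmsb10 (0.965). Col1a1, the main fibrillar collagen chain, stood at 48.7, 11.6 and 123 CPM in Western siAATF, 350, 200 and 264 CPM in Western null, 17.7, 9.17 and 17.6 CPM in chow siAATF, and 3.20, 18.1 and 5.22 CPM in chow null. As in most of the 10 chains, replicate 2 was the lowest library of Western siAATF and the highest of chow null.

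Of the chains of the 3 families outside the 10 described so far, 10 more could be tested. Collagen IV alpha3 (Col4a3, 52 counts in all libraries) and Col6a4 (0 counts) did not pass the low-count filter. With the diet, 4 of these 10 other chains were higher and 1 lower in Western null than in chow null, beside 6.44% and 6.77% of all genes tested. Between Western siAATF and Western null 0 were called by edgeR, beside 0.871% of all genes. Between Western siAATF and Western null 4 passed at an unadjusted p under 0.05 (Col4a5, Col6a5, Lama5 and Lamc3), a count given without the share of all genes. DESeq2 called 1, Lamc3, beside 285 among all genes. Col4a5, the alpha5 chain, stood at 17.8, 15.3 and 15.8 CPM in Western null, against 1.6, 0.565 and 2.61 CPM in chow null (3.10 ± 0.56, edgeR adjusted p = 0.00212). Col4a6, its neighbour on the X chromosome, rose by 3.23 ± 0.85 (edgeR adjusted p = 0.0201), and Col6a5 by 4.49 ± 0.82 on 99 counts in Western null against 5 in chow null (edgeR adjusted p = 0.00236). Outside Western null, Col6a5 did not exceed 2.65 CPM and Col4a6 did not exceed 2.43 CPM. Both thus passed the low-count filter mainly through the group where they were high. Lamc3, the gamma3 chain, stood at 22.2, 21.1 and 21.5 CPM in Western null, against 0.686, 2.82 and 3.74 CPM in chow null (3.18 ± 0.61, edgeR adjusted p = 0.00331). In Western siAATF it stood at 4.20, 0.681 and 8.80 CPM, below all Western null libraries (-2.37 ± 0.59, edgeR adjusted p = 0.0832).

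Lama3, the alpha3 chain of epithelial laminins, went the other way. It stood at 2.47, 2.38 and 2.87 CPM in Western null, against 11.3, 8.47 and 10.01 CPM in chow null, and fell by 1.93 ± 0.41 (edgeR adjusted p = 0.00651). In Western siAATF it stood at 5.31, 6.58 and 1.76 CPM and overlapped Western null (0.85 ± 0.43, edgeR adjusted p = 0.521). Col4a4, Col6a6, Lama1, Lama5 and Lamb3 were not called with the diet, at 1.11 ± 0.70, 1.08 ± 0.57, 0.63 ± 0.37, 0.97 ± 0.41 and 1.58 ± 1.03 (edgeR adjusted p = 0.314, 0.223, 0.269, 0.13 and 0.343). Lamb3 had 95.5 CPM in Western siAATF replicate 3, against 6.19 and 5.67 CPM in the other libraries of that group and 11.9, 12.3 and 10.8 CPM in Western null.

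The partners of these chains in basement membranes changed in part. Of 20 other basement membrane genes 15 were tested, and 5 were higher and 1 lower in Western null than in chow null, with a median log2 fold change of 0.97. Of all genes tested, 6.44% were called higher and 6.77% lower. Nid1, nidogen 1, which links the laminin and collagen IV networks, stood at 69.1, 61.7 and 68.1 CPM in Western null, against 11.3, 17.5 and 17.6 CPM in chow null (2.12 ± 0.25, edgeR adjusted p = 8.67e-05). In Western siAATF it stood at 21.2, 18.4 and 26.0 CPM and so fell by 1.61 ± 0.25 relative to Western null (edgeR adjusted p = 0.00372). Sparc, a collagen-binding matricellular protein, rose with the diet by 1.92 ± 0.30 (edgeR adjusted p = 0.000631), and Col15a1, a collagen beneath basement membranes, by 2.04 ± 0.44 (edgeR adjusted p = 0.00683), with 45.0% of its span shared with other genes. The other 2 that rose were Smoc2 (1.97 ± 0.56) and Hspg2, perlecan (1.07 ± 0.34), both named after their values were seen. Fras1, a basement membrane protein known for holding embryonic epithelia to the dermis, stood at 0.987, 3.41 and 2.87 CPM in Western null, against 11.4, 9.03 and 14.02 CPM in chow null, and fell by 2.17 ± 0.36 (edgeR adjusted p = 0.00136). In Western siAATF it stood at 9.51, 8.62 and 6.60 CPM, above all Western null libraries (1.67 ± 0.37, edgeR adjusted p = 0.045). Nid1 and Fras1 were the only genes of the list called between Western siAATF and Western null, where 0.871% of all genes were called.

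Receptors of these matrices were the next list. Of 16 tested, 3 were higher and 0 lower with the diet, with a median of 0.23, where 6.44% of all genes tested were called higher and 6.77% lower. They were the collagen receptor kinases Ddr1 (2.37 ± 0.59, edgeR adjusted p = 0.0146) and Ddr2 (1.15 ± 0.37, edgeR adjusted p = 0.0483), and Antxr1, an anthrax toxin receptor that binds collagen VI (1.96 ± 0.62, edgeR adjusted p = 0.0453), with 27.7% of its span shared. Among 18 genes of collagen modification, folding and crosslinking 3 were higher and 1 lower, with a median of 0.44. Serpinh1, the collagen chaperone HSP47, stood at 47.9, 36.5 and 35.5 CPM in Western null, against 4.68, 9.03 and 5.83 CPM in chow null (2.71 ± 0.34, edgeR adjusted p = 0.00015). The lysyl hydroxylase gene Plod2 rose by 2.86 ± 0.72 (edgeR adjusted p = 0.0161), with no library above 3.46 CPM, and Colgalt1, a collagen galactosyltransferase, rose by 0.68 ± 0.21 (edgeR adjusted p = 0.043). Outside Western null Plod2 did not exceed 2.20 CPM, so it passed the low-count filter mainly through that group. Ppib, the cyclophilin B of the collagen hydroxylation complex, fell by 0.84 ± 0.24 (edgeR adjusted p = 0.0296), with 22.5% of its span shared. Between Western siAATF and Western null 0 genes of either list were called by edgeR. At an unadjusted p under 0.05, 2 receptors and 2 genes of collagen assembly passed, counts given without the share of all genes. DESeq2 called 0 of them.

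**Figure D4:**
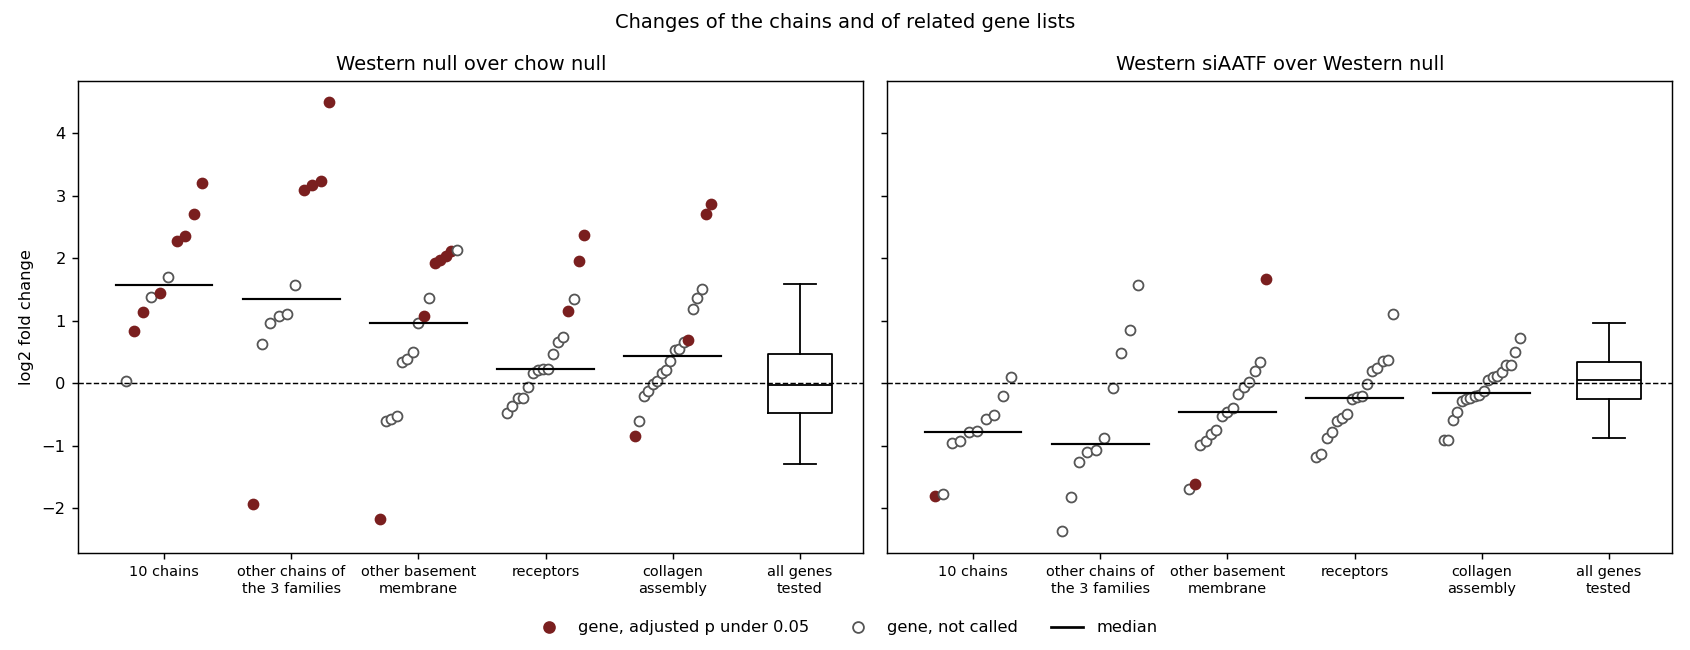
Log2 fold change of the 10 chains and of related lists, 1 point per tested gene and a bar at each list's median, with a box for all genes tested (box: quartiles, whiskers: 5th and 95th percentiles). In Western null over chow null the median of the 10 chains is 1.58, and in Western siAATF over Western null it is -0.78.

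Markers of the cells that make these chains moved with the diet in part. The counts below stand beside 6.44% of all genes called higher and 6.77% lower. Of 13 tested stellate cell and myofibroblast markers, 5 were higher and 0 lower in Western null than in chow null, with Vim (1.99 ± 0.34), Cygb (1.65 ± 0.34) and Pdgfrb (1.66 ± 0.34) leading. The summed level of the whole list ran from 488 to 702 CPM in Western siAATF, 655 to 793 in Western null, 282 to 447 in chow siAATF and 337 to 521 in chow null. Lrat, a defining marker of quiescent stellate cells, was listed at 0 in all libraries. Of 10 portal fibroblast markers only 4 were tested, and these were higher (Eln 3.17 ± 0.54, Fbln2 3.02 ± 0.55, Dpt 2.65 ± 0.58 and, named after its value was seen, Entpd2 2.09 ± 0.50). The rest did not pass the low-count filter: Thy1 (71 counts in all libraries), Gli1 (1), Cd34 (16), Mfap4 (87), Clec3b (9) and Pi16 (19). They were named after their counts were seen, and leave the change of most of this list undecided. The list of 10 summed to 9.99 to 27.4 CPM in Western siAATF, 35.1 to 64.7 in Western null, 10.3 to 14.8 in chow siAATF and 5.60 to 9.49 in chow null. Of 14 endothelial markers 4 were higher, among them Lyve1 (2.15 ± 0.43), Vwf (1.69 ± 0.37) and Pecam1 (1.16 ± 0.33), and 10 were not called. Among those not called were Kdr (-0.03 ± 0.23), Flt1 (-0.30 ± 0.28), Tek (-0.05 ± 0.29) and Ptprb (0.01 ± 0.23), named after their values were seen. The median of the 14 was 0.48, and 11 lay above 0. Endothelial sums were 540 to 668 CPM in Western siAATF, 602 to 732 in Western null, 412 to 467 in chow siAATF and 449 to 515 in chow null. For these 3 lists 0 genes were called between Western siAATF and Western null by edgeR. At an unadjusted p under 0.05, 4 stellate, 4 portal fibroblast and 1 endothelial marker passed, and DESeq2 called 2, 1 and 0 of them lower. Among all genes DESeq2 called 159 lower. The share of all genes at that unadjusted p is not given here, so the marker counts have no share to be read against. The sums of portal fibroblast markers separated Western siAATF from Western null, as Col6a1, Col6a2, Col6a3, Lama2, Lamb1 and Lamb2 did. Those of the stellate and endothelial lists overlapped. The stellate sums in Western siAATF held 2 high single values, Des at 175 CPM in replicate 1 (5.67 and 3.08 in replicates 2 and 3) and Ecm1 at 215 CPM in replicate 3 (86.5 and 60.8 in replicates 1 and 2), both named, like Dcn and Colec10, after their values were seen. Of the 13 stellate markers tested, 4 (Dcn, Pdgfrb, Cygb and Vim) were lower and 1 (Colec10) was higher in every Western siAATF library than in every Western null library. Of all genes tested, 7.87% were lower in this way. The share that was higher in this way is not given here, so Colec10 has none to be read against.

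Markers of other cell types were called in part, beside 6.44% of all genes called higher and 6.77% lower with the diet. Between Western siAATF and Western null, 0.561% of all genes were called lower. Of 8 tested cholangiocyte markers 4 were higher, Spp1 (3.77 ± 0.47), Tspan8 (3.22 ± 0.72) and Prom1 (2.46 ± 0.60) leading, and 1 was lower in Western siAATF than in Western null (Spp1, -2.64 ± 0.45). Tspan8 and Prom1 did not exceed 1.14 CPM outside Western null, so they passed the low-count filter only through the group where they were high. Krt19 (102 counts in all libraries) and Cftr (32) did not pass it. Krt19, Cftr and Krt23 were named after their values were seen. The cholangiocyte list of 10 summed to 34.9 to 103 CPM in Western siAATF, 111 to 241 in Western null, 33.9 to 54.0 in chow siAATF and 37.4 to 48.6 in chow null. These sums too separated Western siAATF from Western null, but most of the Western null sums was Spp1. Spp1 stood at 18.6, 38.1 and 15.4 CPM in Western siAATF, against 199, 88.25 and 167.5 CPM in Western null. Krt23 had 67.8 CPM in Western siAATF replicate 3, against 0.221 and 0.454 CPM in replicates 1 and 2. Of 12 macrophage markers 8 were higher and 1 lower with the diet, and 3 were lower in Western siAATF than in Western null (Gpnmb, Cd63 and Trem2). Gpnmb, a glycoprotein of lipid-laden macrophages, had 8 counts in Western siAATF, 806 in Western null, 6 in chow siAATF and 5 in chow null. Cd63 rose with the diet by 4.5 ± 0.34 and fell by 2.05 ± 0.29 in Western siAATF, and Trem2 had 286 counts in Western null against 3 in chow null. Outside Western null Trem2 did not exceed 3.98 CPM, so it passed the low-count filter mainly through that group. Macrophage sums were 415 to 864 CPM in Western siAATF, 658 to 1050 in Western null, 179 to 367 in chow siAATF and 252 to 340 in chow null. Of 12 hepatocyte markers 3 were lower with the diet, Fgb (-1.72 ± 0.39), Hnf4a (-0.77 ± 0.24) and Pck1 (-0.96 ± 0.31), and sums were 62900 to 92700 CPM in Western siAATF, 74900 to 82900 in Western null, 101000 to 109000 in chow siAATF and 93700 to 126000 in chow null. The part of these cell types in the levels of the 10 chains was not tested.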

How the data were processed

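Liver RNA was isolated with an AllPrep DNA/RNA kit and made into libraries by SMART-Seq, per the labels' protocols. The deposited table gives raw counts per gene, as whole numbers. The submitters' processing notes name STAR 2.7.11, featureCounts 2.0.1, DESeq2 1.42.0, R 4.3.2 and the build GRCm39. Whether counting used strand is not given in the sources used here. Each gene's length in the table equals its whole span, so introns were counted too, and in genes that overlap others part of the reads may be missing.

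From these counts, TMM-scaled CPM were computed, and genes were kept with filterByExpr by group (11934 of 50499). Genes were tested by robust quasi-likelihood in edgeR 4.0.16 under R 4.3.3, with all 12 libraries in 1 model, a mean per group and 8 residual degrees of freedom. P-values were adjusted by Benjamini-Hochberg over all genes tested. Chain ratios were tested by exact two-sided permutation over libraries (scipy 1.17.1). Alternatives were DESeq2, RLE size factors, no filter, the compared groups alone, a replicate block, 2 treatments of 18S counts, a gene span correction, and each library left out, 20 settings for each comparison and 19 for the interaction. The self-test of the main fit used simulated counts. Reads carry no molecular identifiers, so count limits cover counting error only.

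The members and lists were chosen with earlier results of these data known. Genes are named by this rule: the 10 chains, every other tested chain of the families, Aatf, up to 4 genes per related list called with the diet and up to 3 called with the vector on the Western diet, up to 3 markers per cell type by adjusted p, and the 6 genes most alike. Exceptions are marked. Promoters (RefSeq, GRCm38.p6) were matched by symbol. Protein sequences and a GRCm39 genome were not used here. One gene of the related chains is not reported here.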

Additional observations from a re-analysis of the deposited data

Results flagged for a closer look

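Gpnmb, a macrophage marker and not one of the 10 chains, was called in the test of a difference between the vector effects on the Western diet and on chow. It had 8 counts in Western siAATF against 806 in Western null, and 6 counts in chow siAATF against 5 in chow null. Outside Western null it did not exceed 0.885 CPM, so it passed the low-count filter only through that group. No fall could have been seen on chow, and the call does not show that the vector acted differently there. The difference between both log2 effects was -6.17 ± 1.15 (edgeR interaction, adjusted p = 0.0396). None of the 10 chains met this condition, the nearest being Col6a3 (-2.28 ± 0.49, edgeR adjusted p = 0.0784).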

How the results depend on the processing

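Col6a1, Col6a2, Col6a3 and Lama2 kept their diet calls in all 20 settings. With DESeq2, genes called were 285 for Western siAATF against Western null (104 as reported), 1 for chow siAATF against chow null (0), 513 for Western siAATF against chow siAATF (177), 700 for Western siAATF against chow null (290) and 124 for the interaction (23), with 2, 0, 0, 2 and 1 of the 10 chains. Without the low-count filter they were 572, 33, 836, 948 and 331 genes, with 2, 0, 2, 5 and 3 chains. With the compared groups alone they were 53, 0, 17 and 24 genes, with 0 chains against chow null, and the interaction has no separate fit of that kind. Same-numbered libraries did not pair (r from -0.38 to 0.26 in 18 pairs, 1 over 0.1). With a replicate block, calls were 1157 genes and 6 chains for the diet (1577 and 7), and 64, 0, 71, 141 and 14 genes for the others, with 0 chains against chow null. Without the 4 libraries over 25% 18S, calls were 1031 genes for the diet, 103 genes and 3 chains for Western siAATF against chow siAATF, 4 chains against chow null and 3 interaction genes. Without Rn18s-rs5 0 chains, and with the span trend removed 0 chains, were called against chow null, and with the span trend removed 2 in Western siAATF against Western null.

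Leaving out each library gave 658 (without chow null replicate 3) to 2250 genes (without Western siAATF replicate 3) and 4 to 9 chains for the diet, 26 (without Western null replicate 1) to 413 (without Western siAATF replicate 3) and 0 to 2 for Western siAATF against Western null, 34 to 737 and 0 for Western siAATF against chow siAATF, 53 to 632 and 0 to 4 against chow null, and 2 to 295 and 0 to 1 for the interaction. The higher share of calls was 67.3% without the filter for Western siAATF against Western null (35.6% as reported). With the span trend removed it was 38.1% for Western siAATF against chow siAATF (51.4%) and 40.9% against chow null (51.7%). Scalings shifted the median of all genes by less than 0.1. The cause of these moves was not tested.

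No called value changed sign. Among uncalled ones, leaving out the high 18S libraries gave 0.17 for Col4a2 in Western siAATF against Western null, and 0.54, 0.44, -0.21 and -0.0011 for Col4a1, Col4a2, Lamb1 and Lamc1 in chow siAATF against chow null. On chow, DESeq2 gave -0.020 for Lamb2, and the span correction 0.0056 for Lama2 and -0.054 for Lamb2. Leaving out 1 library gave ranges that cross 0: Lama4 -0.13 to 0.25 (diet), -0.032 to 0.20 (Western siAATF against Western null) and -0.033 to 0.34 (against chow null); Col4a2 -1.04 to 0.15 (Western siAATF against Western null) and -0.96 to 0.25 (interaction); and Lamc1 -0.22 to 0.30 (Western siAATF against chow siAATF). On chow they were -0.39 to 0.75 for Col4a1, -0.31 to 0.37 for Col4a2, -0.70 to 0.058 for Lama2, -0.20 to 0.16 for Lamb1 and -0.29 to 0.53 for Lamb2. All ratio results moved by less than 1 SD. Depth limits Lama2 most, with 11 counts in chow null replicate 2.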
